A study of Mus musculus with 3 samples.

Results

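The NRF2 antioxidant and glutathione genes described here are Hmox1, Nqo1, Gclc, Gclm, Txnrd1, Srxn1, Gpx4, Gsr, Prdx1 and Cat, 10 of the 23337 genes counted in mouse heart tubes at embryonic day 9.5. They were chosen by name, as enzymes of the antioxidant response, but with earlier results of these data known. All 10 had a row in every file and passed the filter on low counts. RNA of the heart tube was sequenced in 3 libraries, 2 from Sox7-null tubes, in which both alleles of the transcription factor gene Sox7 are lacking, and 1 from a wild-type tube. The series asks which genes are expressed differently in the developing heart without SOX7, a SoxF factor of endothelium and endocardium. The labels give neither the strain, the sex, the kind of Sox7 allele nor whether a tube was 1 embryo or a pool, and a p-value here reflects how far the Sox7-null libraries differ from each other, which may be technical.

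NRF2, encoded by Nfe2l2, is a transcription factor that is normally held by KEAP1 and marked for degradation, and that is released when oxidants or electrophiles modify KEAP1. It then pairs with a small MAF protein on antioxidant response elements of genes whose products make and recycle glutathione, reduce thioredoxin, remove peroxides and break down haem. BACH1 competes for the same elements and is removed when haem binds it, which is why Hmox1 is also known as a haem-responsive gene. Cells also make many of these enzymes at a basal level without any stress.

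Reads assigned to genes numbered 13139823 and 13618338 in the Sox7-null libraries and 13789388 in the wild type. Sox7 itself had 2 and 7 reads in the Sox7-null libraries and 222 in the wild type. Entries tallied as having more than 1 alignment were 10.4% and 11.6% of all tallied entries in the Sox7-null libraries and 22.3% in the wild type. Entries outside features were 8.10% and 8.52% in the Sox7-null libraries and 11.7% in the wild type. These are shares of the tallied entries, which need not be shares of reads. The extraction text in the labels speaks of retinal cultures, whereas the tissue label is heart tube. All 7 myocardial markers were read in every library, with summed levels of 28190 and 27213 CPM (the usual depth-scaled read count, here with TMM factors) in the Sox7-null libraries and 21354 CPM in the wild type, as were all 7 endothelial markers. Retinal markers summed to 1.93 and 1.02 CPM in the Sox7-null libraries and 1.36 CPM in the wild type. Marker levels of other cell types differed between the libraries. Over the 9 erythroid markers in the files the summed level was 4546 and 14476 CPM in the Sox7-null libraries and 14035 CPM in the wild type, with Hba-a1 at 0 reads throughout. Reads with more than 1 alignment were not counted, so this 0 does not show that Hba-a1 was absent, and the sum leaves such reads out. The 11 macrophage markers summed to 40.9 and 17.4 CPM in the Sox7-null libraries and 18.9 CPM in the wild type, and none was at 0 in all libraries. The 9 foregut and liver markers summed to 2.52 and 3.41 CPM in the Sox7-null libraries, with Alb at 0 reads in both, and 50.3 CPM in the wild type. The 8 platelet markers summed to 367 and 224 CPM in the Sox7-null libraries and 61.5 CPM in the wild type.

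The antioxidant genes did not move as a block in Sox7-null heart tubes. Hmox1, the inducible haem oxygenase, was 2.02-fold higher, while the peroxiredoxin gene Prdx1 and the thioredoxin reductase gene Txnrd1 were lower by 49.9% and 38.3%. The other 7 did not pass the test. In counts, 1 of 10 was higher and 2 were lower at an edgeR adjusted p under 0.05, where 21.6% of all 13334 genes tested were called, 11.3% as higher and 10.2% as lower. The fold change was negative for 9 of the 10 genes, with a median log2 fold change of -0.39 over the 10, against 0.014 over all genes tested. This median and those of the lists below are as counted. Corrected for the length and GC content of transcripts in either way described below, Prdx1, Gpx4, Nqo1 and Cat lay nearer the wild type. Hmox1, Txnrd1 and Srxn1 then lay further from it. Both Sox7-null libraries lay below the wild type for 8 of the 10, as they did for 43.0% of all genes tested. Both lay above it for Hmox1 and on either side of it for Nqo1.

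**Figure D1:**
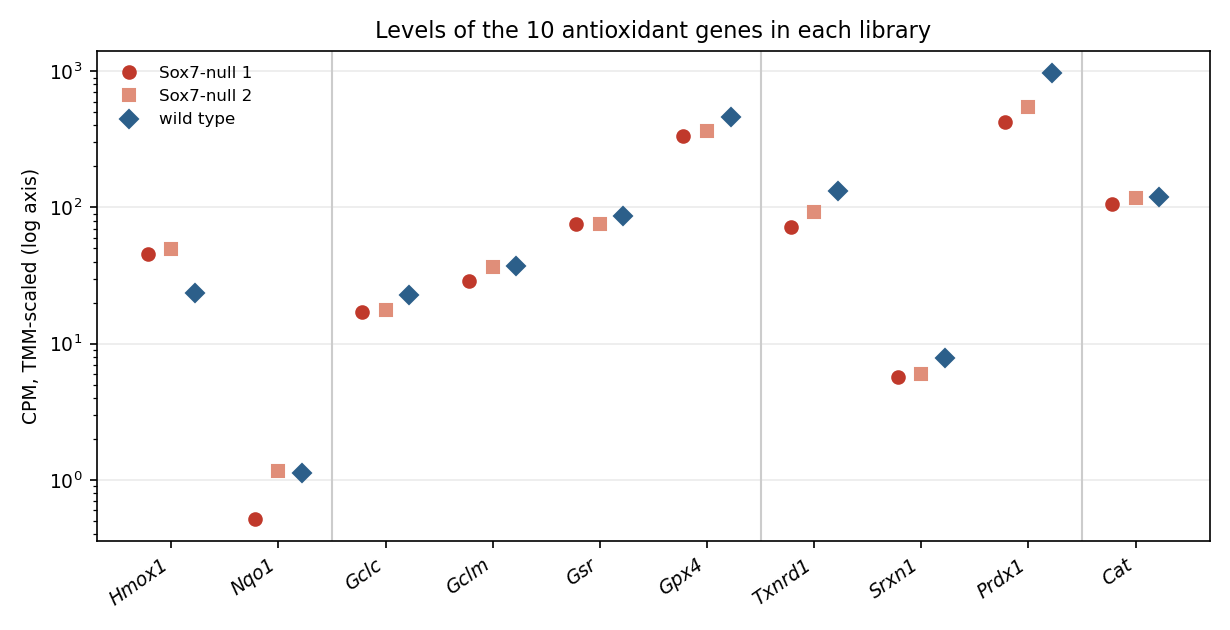
Level of each of the 10 genes in every library, in CPM scaled with TMM factors on a log axis, with the Sox7-null libraries left of the wild type; the grey lines separate Hmox1 and Nqo1, the glutathione genes, the thioredoxin genes and Cat. Hmox1 stands at 45.8 and 49.4 CPM in the Sox7-null libraries and 23.6 CPM in the wild type, and Prdx1 at 425 and 549 CPM in the Sox7-null libraries and 971 CPM in the wild type.

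Hmox1 cleaves haem into biliverdin, carbon monoxide and iron, and its transcript was the one member that rose. It had 617 and 681 reads in the Sox7-null libraries and 313 in the wild type, or 45.8 and 49.4 CPM against 23.6 CPM. Both Sox7-null libraries were clear of the wild type, and they differed from each other by only -0.11 on the log2 scale (Sox7-null 1 minus Sox7-null 2). The log2 fold change was 1.01 ± 0.22 (SE; edgeR quasi-likelihood test, adjusted p = 0.00676), and 0.94 or 1.05 when only Sox7-null 1 or only Sox7-null 2 was compared with the wild type. Counting error alone gave an interval of 1.78 to 2.29 for the fold on summed reads (95%, exact). Macrophages are a known source of Hmox1. Their 11 markers summed to 40.9 CPM in Sox7-null 1, 17.4 CPM in Sox7-null 2 and 18.9 CPM in the wild type. Of 7 markers tested, 2 were higher, Fcer1g (2.07 ± 0.56) and Laptm5 (1.71 ± 0.45), and 1 was lower, Lyz2 (-1.38 ± 0.36), with a median log2 fold change of 1.18. Taken alone, Sox7-null 1 gave a median of 1.62 and Sox7-null 2 one of -0.27. DESeq2 called neither Fcer1g nor Lyz2, and limma-voom neither Fcer1g nor Laptm5. The part of macrophages in the Hmox1 values was not tested.

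Other genes of haem breakdown and iron handling did not follow Hmox1 as counted. Of 13 tested, 0 were higher and 2 lower, with a median log2 fold change of -0.14. Among all genes tested 11.3% were higher and 10.2% lower, and the list counts below are to be read beside these shares too. Hmox2, the constitutive haem oxygenase, had 34.0 and 27.6 CPM in the Sox7-null libraries and 30.2 CPM in the wild type (log2 fold change 0.03 ± 0.22, edgeR adjusted p = 0.944). Blvra, a biliverdin reductase that acts on the product of haem oxygenase, had 15.8 and 18.4 CPM in the Sox7-null libraries and 16.7 CPM in the wild type. The lower genes were Steap3, an endosomal ferrireductase (-1.30 ± 0.37, edgeR adjusted p = 0.0258), and Pcbp2, which binds RNA and also carries iron (-0.55 ± 0.18, edgeR adjusted p = 0.0422). Neither passed with DESeq2, and Pcbp2 did not pass after length-GC correction, in which the loess curve of fold change on the length and GC content of transcripts is subtracted. Unless all protein-coding transcripts are named, the correction used the transcripts paired with RefSeq. It left 1031 of the 13334 genes tested higher and 657 lower, and with all protein-coding transcripts 1192 were higher and 991 lower. In that second fit Tfrc of the haem and iron list was called higher (0.66, edgeR adjusted p = 0.0229). With the RefSeq-paired transcripts it stood at 0.51 and did not pass (edgeR adjusted p = 0.0703). In bulk tissue, fewer cells of a type and less RNA per cell cannot be told apart, here and for every gene below.

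Nqo1, an NAD(P)H quinone reductase and the most often used reporter of NRF2 activity, was close to the limit of detection. It had 7 and 16 reads in the Sox7-null libraries and 15 in the wild type. Its fold on summed reads was 0.746, with a counting interval of 0.373 to 1.54 (95%, exact), so neither a rise nor a fall within those bounds was detectable at this depth. The edgeR log2 fold change was -0.42 ± 0.77 (adjusted p = 0.737).

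Prdx1 and Txnrd1, both of the thioredoxin system, were the members that fell. Prdx1 is a cytosolic peroxiredoxin that reduces hydrogen peroxide and is returned to its active form by thioredoxin. It had 5724 and 7564 reads in the Sox7-null libraries and 12875 in the wild type, or 425 and 549 CPM against 971 CPM. Both Sox7-null libraries were well below the wild type, and Sox7-null 1 was lower than Sox7-null 2 by 0.37 on the log2 scale. The log2 fold change was -0.996 ± 0.17 (edgeR adjusted p = 0.00201). Taken alone, Sox7-null 1 gave a log2 difference of -1.19 and Sox7-null 2 one of -0.82. RefSeq lists a Prdx1 pseudogene and 2 of Gpx4. Reads with more than 1 alignment, whose tally was larger in the wild type, were not counted. The levels of both genes are uncertain to that extent.

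Txnrd1, the cytosolic selenoenzyme that reduces thioredoxin with NADPH, had 963 and 1267 reads in the Sox7-null libraries and 1757 in the wild type. In CPM this was 71.4 and 91.9 against 133 in the single wild-type library. The log2 fold change was -0.70 ± 0.20 (edgeR adjusted p = 0.0268), and -0.89 for Sox7-null 1 and -0.52 for Sox7-null 2 taken alone. With DESeq2 the adjusted p was 0.0506, just outside the threshold. Srxn1, the sulfiredoxin that repairs over-oxidised peroxiredoxins, had only 77 and 82 reads in the Sox7-null libraries and 104 in the wild type. Its log2 fold change of -0.43 ± 0.33 did not pass (edgeR adjusted p = 0.383), and its 95% interval ran from -1.14 to 0.28.

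The promoter windows of these genes were searched for the letters of the NRF2 element. RefSeq windows of 300 bases (GRCm38.p6, 250 bases before to 50 after a transcription start, 5′ to 3′ on the strand of the gene) were given for 7 of the 10 genes in 12 windows, and Hmox1, Gclc and Gsr had none. The core TGACNNNGC, searched on both strands, stood in 4 of the 12 windows, 1 each of Prdx1, Txnrd1, Srxn1 and Gclm, against 12.4% of all 32851 windows. By gene this was 4 of 7, against 14.0% of all genes with a window, and Nqo1, Gpx4 and Cat had no match. The Prdx1 window is shown because this gene had the lowest fold change as counted, though not after length-GC correction, where Txnrd1 was lower, and because its match, TGACTCAGC, is a full antioxidant response element core that also holds the letters TGACTCA of the AP-1 motif. It is chr4:116685349-116685648, on the plus strand, with the match in capitals on the opposite strand at positions -133 to -125 from the start.
Prdx1: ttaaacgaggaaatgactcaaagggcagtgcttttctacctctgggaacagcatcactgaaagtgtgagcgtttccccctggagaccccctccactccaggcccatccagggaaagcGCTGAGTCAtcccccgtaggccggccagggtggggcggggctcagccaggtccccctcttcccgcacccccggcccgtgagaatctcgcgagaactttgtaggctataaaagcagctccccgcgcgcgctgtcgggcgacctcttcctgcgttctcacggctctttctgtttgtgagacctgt

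The 4 matches are set side by side with 10 bases on each side, all read on the strand opposite to the gene and with the core in capitals, so that the bases between its fixed letters can be compared. The Txnrd1 window is chr10:82858956-82859255 (match at -92 to -84), the Srxn1 window chr2:152105274-152105573 (match at 29 to 37) and the Gclm window chr3:122245307-122245606 (match at -134 to -126), all on the plus strand. The last line is a match in the Srxn1 window to the G form of the core, TGAGNNNGC, read on the strand of the gene at -45 to -37. This form was added after the windows had been seen.
Prdx1: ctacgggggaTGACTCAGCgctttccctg
Txnrd1: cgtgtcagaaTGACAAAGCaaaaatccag
Srxn1: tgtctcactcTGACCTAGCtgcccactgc
Gclm: tcgtgagagtTGACGGTGCgcccgggagc
Srxn1, G form: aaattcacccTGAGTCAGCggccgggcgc

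Among these 4 genes, Prdx1 and Txnrd1 fell and Srxn1 and Gclm did not pass the test. The G form stood in 2 of the 12 windows, those of Srxn1 and Prdx1, and in 17.7% of all windows. The core TGATGNAA of the element bound by ATF4 with C/EBP proteins, searched on both strands as well, was in none of the 12 windows and in 3.97% of all windows. A match of letters is a description of the sequence and not a measured binding site, and elements outside these windows were not searched.

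None of the 4 glutathione genes passed the test. Gclc, the catalytic subunit of the enzyme that limits the rate of glutathione synthesis, had 17.2 and 17.7 CPM in the Sox7-null libraries and 22.7 CPM in the wild type (log2 fold change -0.38 ± 0.23, edgeR adjusted p = 0.255). Gclm, its modifier subunit, had 29.1 and 36.4 CPM in the Sox7-null libraries and 37.3 CPM in the wild type (-0.19 ± 0.22, edgeR adjusted p = 0.582). Sox7-null 1 and Sox7-null 2 lay close together for Gclc and apart for Gclm, where Sox7-null 2 nearly reached the wild type. The number of Gclm reads per Gclc read was 1.69 and 2.06 in the Sox7-null libraries and 1.64 in the wild type. The 95% intervals of the log2 fold changes ran from -0.87 to 0.11 for Gclc and from -0.67 to 0.29 for Gclm.

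Gsr, the reductase that returns oxidised glutathione to its reduced form, was the steadiest of the members between the Sox7-null libraries. It had 75.8 and 76.0 CPM in the Sox7-null libraries and 86.0 CPM in the wild type (-0.18 ± 0.19, edgeR adjusted p = 0.533). Gpx4, the selenoenzyme that uses glutathione to reduce lipid hydroperoxides in membranes and so holds back ferroptosis, had 4495 and 5038 reads in the Sox7-null libraries and 6144 in the wild type. Its 333 and 366 CPM in the Sox7-null libraries lay below the 463 CPM of the single wild-type library. The log2 fold change of -0.41 ± 0.16 had an unadjusted p of 0.0242 and did not pass after adjustment over all genes (edgeR adjusted p = 0.0864). It came to -0.16 after length-GC correction (edgeR adjusted p = 0.543), but to -0.39 with all protein-coding transcripts (edgeR adjusted p = 0.117).

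Cat, the peroxisomal catalase, was nearly level, with 105 and 116 CPM in the Sox7-null libraries and 119 CPM in the wild type. Its log2 fold change was -0.10 ± 0.19 (edgeR adjusted p = 0.746; 95% interval -0.50 to 0.30). Catalase is abundant in red cells, and the erythroid sum in Sox7-null 1, the library with the least Cat, was the lowest of the 3. The part of that difference in the Cat values was not tested. Of 20 other peroxisomal genes tested, 1 was higher and 0 lower, with a median log2 fold change of -0.19. The higher one was Pex14, part of the docking complex for imported enzymes (0.72 ± 0.22, edgeR adjusted p = 0.0334), and it did not pass with DESeq2 (edgeR found 1 of 20, DESeq2 0 of 20) or after length-GC correction.

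**Figure D2:**
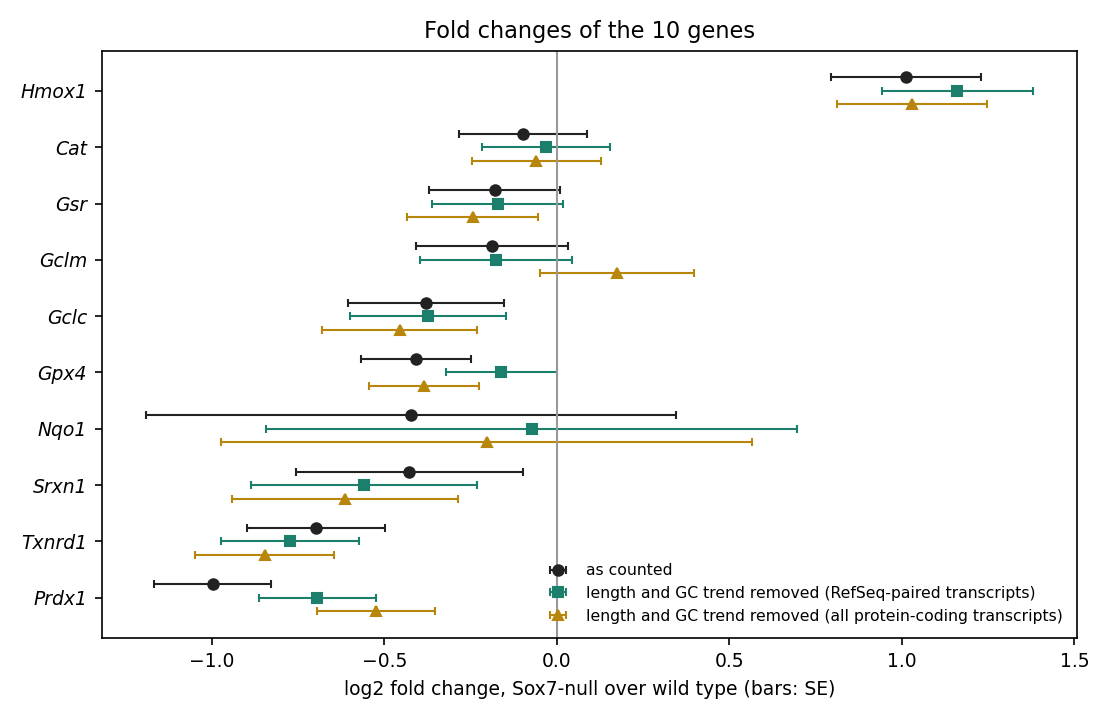
Log2 fold change of each gene, Sox7-null over wild type, with its standard error, as counted and after length-GC correction with either of 2 sets of transcripts. Hmox1 stays at 1.01 to 1.16 in the 3 fits, whereas Prdx1 is at -0.996, -0.69 and -0.52.

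The loess curve of fold change ran with both the length and the GC content of transcripts, and subtracting it moved Prdx1 more than the other called members. With the RefSeq-paired transcripts the curve stood at -0.30 for Prdx1 (2294 bases, 42.3% GC). It stood at 0.088 for Sqstm1, which is of similar length but richer in GC (2355 bases, 54.5% GC). The separate parts of length and GC content in the Prdx1 shift were not tested. After length-GC correction with the transcripts paired with RefSeq, the log2 fold change of Prdx1 was -0.69 ± 0.17 (edgeR adjusted p = 0.0199). The transcript of Prdx1 that is paired with RefSeq has 2294 bases, while the median over its 5 protein-coding transcripts is 661 bases. With such median lengths for all genes, a setting added after the data were seen, Prdx1 stood at -0.52 ± 0.17 and no longer passed (edgeR adjusted p = 0.0541). Txnrd1 stood at -0.77 and -0.85 and Hmox1 at 1.16 and 1.03 in these fits, and both passed in each. Gclm changed sign with the second set of lengths (0.17 ± 0.22, edgeR adjusted p = 0.636).

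Set against each other per kilobase of transcript, the members spanned a wide range of levels. In the wild type the order from high to low was Gpx4, Prdx1, Cat, Txnrd1, Gsr, Hmox1, Gclm, Gclc, Srxn1 and Nqo1, with 474 CPM per kilobase for Gpx4 and 0.728 for Nqo1. In both Sox7-null libraries Hmox1 stood directly after Cat, ahead of Gsr and Txnrd1. Its level per kilobase there was 29.2 and 31.5, against 28.4 and 28.4 for Gsr, so these neighbours lay within a few units of each other. Gclm (5.20 and 6.52 in the Sox7-null libraries, 6.68 in the wild type) and Gclc (5.03 and 5.17 in the Sox7-null libraries, 6.63 in the wild type) were close as well. These places hold for the RefSeq-paired transcripts, and the order depends on the transcript taken for a gene. With the median over protein-coding transcripts, Prdx1 stood above Gpx4 in every library, at 642 and 830 CPM per kilobase in the Sox7-null libraries and 1469 in the wild type. Gclm then stood at 29.0 and 36.4 CPM per kilobase in the Sox7-null libraries and 37.3 in the wild type, far above Gclc, whose single transcript leaves its values as given. In Sox7-null 2 that placed Gclm between Cat (68.7) and Hmox1 (31.5).

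The reads of the 10 genes together came to 1109 and 1310 CPM in the Sox7-null libraries and 1864 CPM in the wild type. Prdx1 and Gpx4 held most of them, with 68.4% and 69.8% in the Sox7-null libraries and 76.9% in the wild type. For each Hmox1 read there were 9.28 and 11.1 Prdx1 reads in the Sox7-null libraries and 41.1 in the wild type.

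The regulators of the pathway were examined next, and several of NRF2's relatives rose while NRF2 and KEAP1 themselves did not pass. Of 15 regulators tested, 5 were higher and 1 lower, with a median log2 fold change of 0.51. Nfe2l2 had 56.7 and 52.5 CPM in the Sox7-null libraries and 45.4 CPM in the wild type (0.27 ± 0.20, edgeR adjusted p = 0.380), and Keap1 had 41.2 and 44.8 CPM in the Sox7-null libraries and 42.8 CPM in the wild type (0.01 ± 0.20, edgeR adjusted p = 0.986). NRF2 is controlled mainly through its protein, which was not measured. The repressor Bach1 had 63.1 and 51.7 CPM in the Sox7-null libraries and 39.7 CPM in the wild type and did not pass (0.53 ± 0.22, edgeR adjusted p = 0.0983).

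Maff, one of the small MAF partners, rose the most, with 33.1 and 26.7 CPM in the Sox7-null libraries and 7.99 CPM in the wild type (1.90 ± 0.26, edgeR adjusted p = 0.000728). Its fellow small MAF genes Mafk (0.56 ± 0.23) and Mafg (0.14 ± 0.25) did not pass. Nfe2l1, which encodes NRF1, a relative of NRF2 known for inducing proteasome genes, rose by 1.22 ± 0.23 (edgeR adjusted p = 0.00331), and the repressor gene Bach2 by 1.32 ± 0.25 (edgeR adjusted p = 0.00316). Sqstm1, whose product p62 binds KEAP1 and delivers it to autophagy, rose by 0.70 ± 0.19 (edgeR adjusted p = 0.0234). After length-GC correction it stood at 0.61 (edgeR adjusted p = 0.0565), and at 0.66 with all protein-coding transcripts (edgeR adjusted p = 0.0358). Nfe2l3 had 116 and 44 reads in the Sox7-null libraries and 21 in the wild type (1.89 ± 0.59, edgeR adjusted p = 0.0390) and stood at 1.90 with DESeq2 (adjusted p = 0.101) and at 1.93 and 1.82 in the 2 corrections (edgeR adjusted p = 0.0511 and 0.0542), as large a change that did not pass. Rbx1, the RING subunit of the ligase that marks NRF2 for degradation, was the lower one (-0.65 ± 0.17, edgeR adjusted p = 0.0189). After the correction, 3 regulators were higher (Maff, Nfe2l1 and Bach2) and 0 lower, and with all protein-coding transcripts 5 were higher and 0 lower. Those 5 held Sqstm1 and, in place of Nfe2l3, Gsk3b (0.73, edgeR adjusted p = 0.0241), which had not passed as counted (edgeR adjusted p = 0.0749).

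Among other known NRF2 targets a few rose strongly and more were lower. Of 24 tested, 3 rose and 6 fell, with a median log2 fold change of -0.20. The 3 that rose were Abcc1, an exporter of glutathione conjugates (24.4 and 15.2 CPM in the Sox7-null libraries, 3.54 CPM in the wild type; 2.48 ± 0.36, edgeR adjusted p = 0.000971), the glutathione transferase gene Gstm1 (1.69 ± 0.35) and Slc7a11. Slc7a11 is the cystine importer that feeds glutathione synthesis and is known as a target of both NRF2 and ATF4. It had 76 and 50 reads in the Sox7-null libraries and 14 in the wild type (2.12 ± 0.54, edgeR adjusted p = 0.0150) and did not pass with DESeq2 (adjusted p = 0.0704). Gstm1 belongs to a cluster of near-identical genes and is uncertain for that reason.

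Among the lower targets, Mgst1, a membrane glutathione transferase, had 48 and 65 reads in the Sox7-null libraries and 198 in the wild type (-1.85 ± 0.31, edgeR adjusted p = 0.00202). The reductase genes Akr1b8 (-0.92 ± 0.23) and Ptgr1 (-1.11 ± 0.28), the transferase gene Gsta4 (-0.83 ± 0.24) and thioredoxin itself, Txn1 (-0.66 ± 0.17), were lower as well. The remaining one, chosen for naming after its values were seen, was the ferritin heavy chain gene Fth1 (-0.70 ± 0.20). DESeq2 called neither Akr1b8, Ptgr1 nor Gsta4. After length-GC correction, 3 targets were higher and 2 lower (Mgst1 and Ptgr1), and Txn1 stood at -0.14. With all protein-coding transcripts Akr1b8 passed too (-0.80), and Txn1 stood at -0.35. The detoxification genes Gsta1, Gsta2, Gsta3, Aldh3a1 and Ugt1a6a had 0 reads in all 3 libraries. For reads that could be counted, this allows up to 3 counts, or 0.223 and 0.218 CPM in the Sox7-null libraries and 0.226 CPM in the wild type. Reads with more than 1 alignment were not counted, so RNA that gives mostly such reads could escape this limit.

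In the wider glutathione pathway, the genes that rose were Chac1, Gpx3, Slc3a2 and Cth, and the glutaredoxin genes Glrx, Glrx2, Glrx3 and Glrx5 were among those that fell. Of 29 genes tested, 4 were higher and 8 lower, with a median log2 fold change of -0.22. Slc3a2, the heavy chain that carries SLC7A11 to the membrane, had 209 and 157 CPM in the Sox7-null libraries and 60.0 CPM in the wild type (1.61 ± 0.22, edgeR adjusted p = 0.000722). Cth, which makes cysteine from cystathionine, rose by 1.45 ± 0.32 (edgeR adjusted p = 0.00823). Chac1, which degrades glutathione in the cytosol, had 439 and 313 reads in the Sox7-null libraries and 6 in the wild type. Its log2 fold change was 5.90 ± 0.45 (edgeR adjusted p = 1.78e-05). All 3 are also known as targets of the stress factor ATF4. Gss, the synthetase that completes glutathione, had 8.16 and 7.76 CPM in the Sox7-null libraries and 11.8 CPM in the wild type and did not pass (-0.56 ± 0.29, edgeR adjusted p = 0.184).

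The glutaredoxins use glutathione to reduce protein disulfides and to handle iron-sulfur clusters. Glrx had 22.5 and 25.5 CPM in the Sox7-null libraries and 60.0 CPM in the wild type (-1.32 ± 0.20, edgeR adjusted p = 0.00125), and Glrx3 had 7.05 and 7.55 CPM in the Sox7-null libraries and 16.0 CPM in the wild type (-1.13 ± 0.27, edgeR adjusted p = 0.0123). Glrx2 (-0.70 ± 0.21) and Glrx5 (-0.84 ± 0.24), named after their values were seen, made up the rest. DESeq2 called Glrx and Glrx5 but neither Glrx2 (adjusted p = 0.162) nor Glrx3 (adjusted p = 0.0951). After length-GC correction, 4 genes of this list were higher and 2 lower (Glrx and Glrx5), and with all protein-coding transcripts 4 were higher and 4 lower. Glrx then stood at -0.89 (edgeR adjusted p = 0.0154), and Glrx3 at -0.80, which did not pass (edgeR adjusted p = 0.0766). With all protein-coding transcripts Glrx3 was at -0.92 and passed (edgeR adjusted p = 0.0386). Glrx2 passed in neither correction (-0.42 and -0.32, edgeR adjusted p = 0.221 and 0.331).

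**Figure D3:**
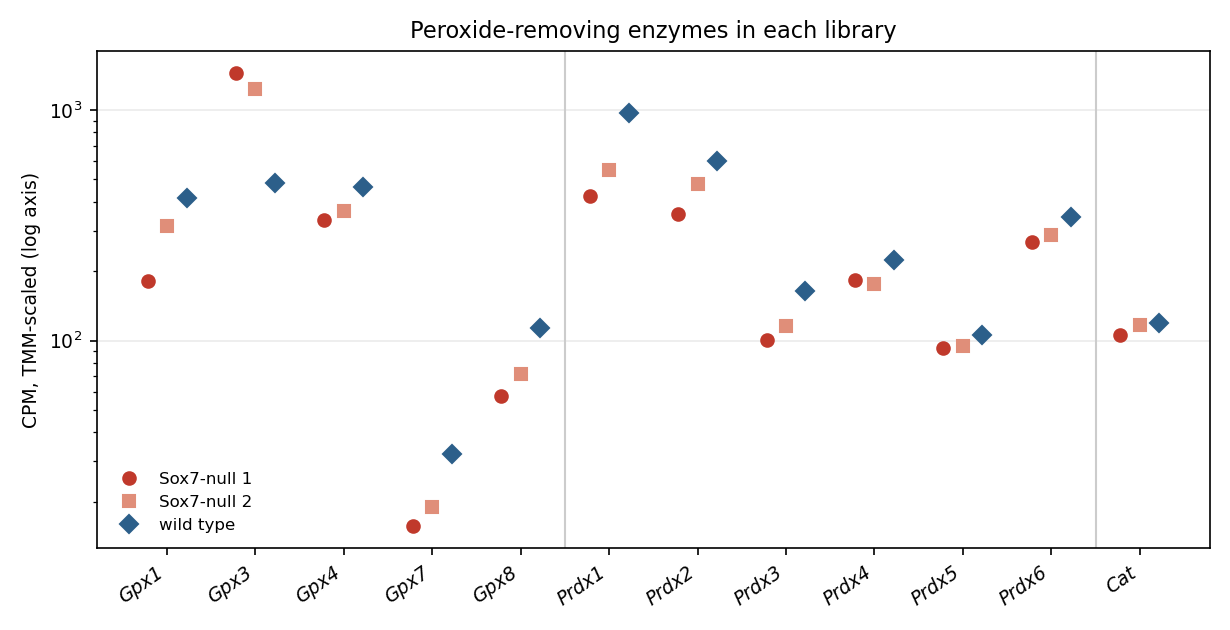
Level of the glutathione peroxidase genes, the peroxiredoxin genes and Cat in every library, in CPM on a log axis, with the Sox7-null libraries left of the wild type. Gpx3 is the gene that stands higher in the Sox7-null libraries, at 1441.5 and 1235 CPM against 483 CPM in the wild type, and the other genes shown stand lower in both Sox7-null libraries than in the wild type.

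Gpx4 was set beside its family, whose members differ in place and substrate. Gpx3, the secreted glutathione peroxidase of plasma, had 1441.5 and 1235 CPM in the Sox7-null libraries and 483 CPM in the wild type (1.47 ± 0.16, edgeR adjusted p = 0.000217). Gpx7 and Gpx8, which act in the endoplasmic reticulum, were lower (-0.89 ± 0.22 and -0.80 ± 0.20, edgeR adjusted p = 0.0144 and 0.0135). Gpx1, the main cytosolic enzyme, had 182 and 313 CPM in the Sox7-null libraries and 417 CPM in the wild type (-0.75 ± 0.24, edgeR adjusted p = 0.0426). DESeq2 called neither Gpx1 nor Gpx7. After length-GC correction Gpx1 stood at -0.51, Gpx7 at -0.70 and Gpx8 at -0.23, none past the threshold (edgeR adjusted p = 0.187, 0.0584 and 0.490). With all protein-coding transcripts Gpx7 passed (-0.81, edgeR adjusted p = 0.0292) and the others did not. Gpx1 also ran with the erythroid sum in that Sox7-null 1 was the lowest library, and the part of red cells in its values was not tested.

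Of 21 other thioredoxin, peroxiredoxin and superoxide dismutase genes tested, 1 was higher and 4 lower, with a median log2 fold change of -0.25. Prdx3, the mitochondrial peroxiredoxin, was lower (-0.60 ± 0.18, edgeR adjusted p = 0.0344), as were the mitochondrial thioredoxin gene Txn2 (-0.55 ± 0.18) and the thioredoxin-like gene Txnl1 (-0.55 ± 0.16). All 3 lost the call with DESeq2 and after length-GC correction. Msrb2, a mitochondrial methionine sulfoxide reductase, was the fourth (-1.67 ± 0.30, edgeR adjusted p = 0.00273). Prdx2, the peroxiredoxin of red cells, had 354 and 480 CPM in the Sox7-null libraries and 600 CPM in the wild type and did not pass (-0.53 ± 0.18, edgeR adjusted p = 0.0588). Sox7-null 1 was the lowest library for Prdx2 and for the erythroid sum, and the part of red cells in the Prdx2 values was not tested.

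The superoxide dismutases Sod1 (-0.26 ± 0.16, edgeR adjusted p = 0.250) and Sod2 (-0.23 ± 0.18, edgeR adjusted p = 0.404) did not pass, and neither did Txnip, the thioredoxin inhibitor (0.16 ± 0.27, edgeR adjusted p = 0.712). Sesn2, a sestrin that supports the repair of peroxiredoxins and is induced by ATF4 and p53, was the one that rose, with 27.2 and 20.8 CPM in the Sox7-null libraries and 3.32 CPM in the wild type (2.85 ± 0.32, edgeR adjusted p = 0.000217).

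Txnrd1 and Gpx4 contain selenocysteine, and other selenoproteins were examined together with the machinery that inserts this residue. Of 16 tested, 0 were higher and 5 lower, with a median log2 fold change of -0.28. Pstk, the kinase that prepares the tRNA for selenocysteine, had 38.6 and 38.4 CPM in the Sox7-null libraries and 81.8 CPM in the wild type (-1.09 ± 0.19, edgeR adjusted p = 0.00243). Sephs1, named for its likeness to the selenophosphate synthetase, was at -0.70 ± 0.21, and Selk and Sep15, which encode selenoproteins of the endoplasmic reticulum, at -0.62 ± 0.19 and -0.52 ± 0.16. The fifth was 2700094K13Rik (-0.64 ± 0.19). After length-GC correction 1 of the 16 was lower (Sephs1, -0.80), Pstk stood at -0.63 (edgeR adjusted p = 0.0517), and of the 5 only Pstk was called by DESeq2.

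NADPH, the electron source of both Gsr and Txnrd1, is supplied by several routes, and enzymes of mitochondria and of folate metabolism were among those that rose. Of 13 tested, 5 were higher and 1 lower, with a median log2 fold change of 0.10. The mitochondrial folate enzymes Mthfd2 (147 and 117 CPM in the Sox7-null libraries, 35.7 CPM in the wild type; 1.88 ± 0.22, edgeR adjusted p = 0.000325) and Aldh1l2 (47.4 and 15.5 CPM in the Sox7-null libraries, 2.49 CPM in the wild type; 3.65 ± 0.59, edgeR adjusted p = 0.00159) rose, and both are also known ATF4 targets. Idh2 and Me2, mitochondrial dehydrogenases of isocitrate and malate, rose by 0.89 ± 0.19 and 1.16 ± 0.21, and H6pd, which works in the endoplasmic reticulum, by 1.33 ± 0.28. After length-GC correction H6pd stood at 0.88 (edgeR adjusted p = 0.0514). Idh1, the cytosolic counterpart of Idh2, was lower (-0.94 ± 0.20, edgeR adjusted p = 0.00610), but did not pass after the correction with all protein-coding transcripts (-0.54, edgeR adjusted p = 0.0816). G6pdx, the first enzyme of the pentose phosphate pathway and a known NRF2 target, did not pass (0.34 ± 0.23, edgeR adjusted p = 0.332).

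**Figure D4:**
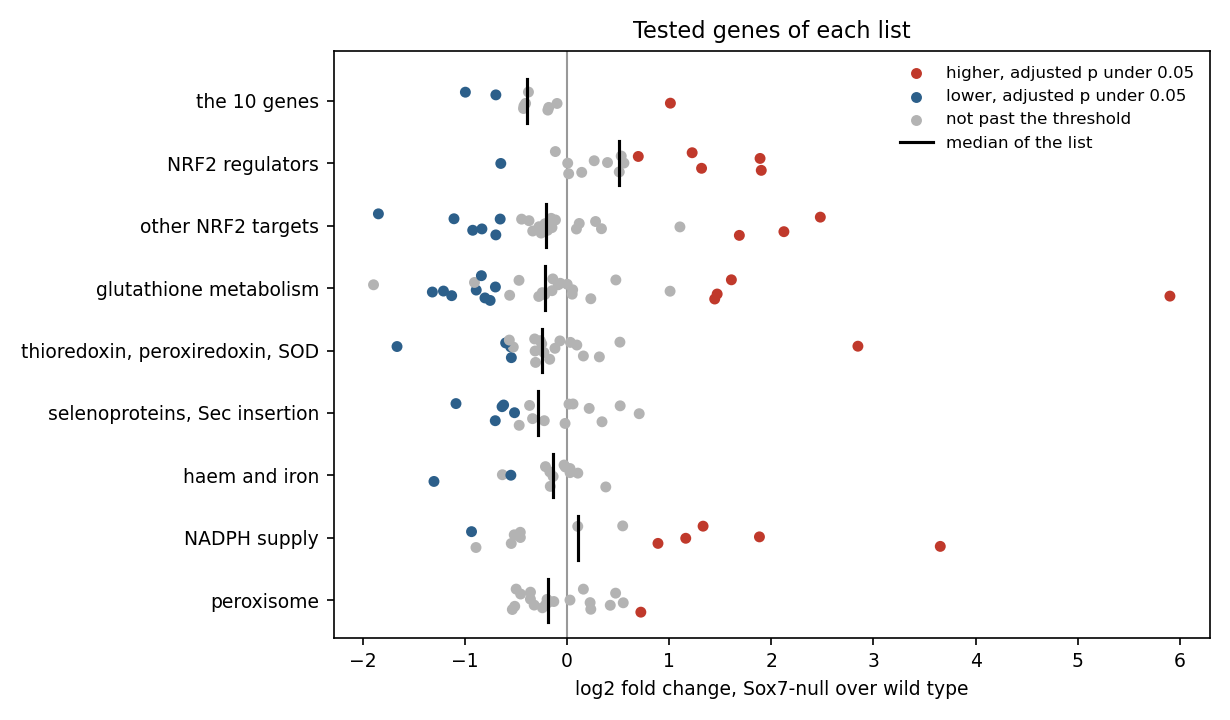
Log2 fold change, Sox7-null over wild type, of every tested gene in the 10-gene set and in 8 related lists, 1 point a gene, coloured by the edgeR call at an adjusted p under 0.05, with the list median as a black bar and random vertical offsets. All values are as counted, without length-GC correction. The medians of the 10 genes (-0.39) and of the selenoprotein list (-0.28) lie left of 0, and that of the regulators (0.51) lies right of it.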

How the data were processed

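Bulk RNA of 3 libraries was compared by labelled genotype. A stranded total RNA kit was used, per the labels' protocols. Each deposited file holds read counts for gene symbols and 5 summary lines, which entered neither library sizes nor tests. The submitters' processing notes name the tools CASAVA, TopHat2, HTSeq and DESeq2 (version 1.10.1). The builds they name, hg19 and GRCh37, are human while the symbols are mouse. Neither annotation nor strand setting is given in the sources used here, so overlapping and antisense genes cannot be told apart, and the only coordinates printed are those of RefSeq promoter windows.

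Counts were tested with edgeR 4.0.16 (glmQLFit, glmQLFTest) in R 4.3.3, with TMM factors of 1.03, 1.01 and 0.962 and a filterByExpr minimum count of 10, which kept 13334 genes. P-values were adjusted by Benjamini-Hochberg over those genes, with a threshold of 0.05. Residual degrees of freedom came to 1, with 11.8 prior ones added, and the single wild-type library is taken to vary as the Sox7-null libraries do. The SE is the log2 fold change divided by the square root of F. Values for a single Sox7-null library are differences of log2(CPM + 0.5). The libraries differed beyond sampling noise in every pairing (chi-square per degree of freedom 19.6 or above). Intervals on summed reads and limits for 0 reads cover counting error only.

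The members and lists were chosen with earlier results of these data known. Of lists with over 15 tested genes, up to 8 by smallest p were named, plus partners of members named in the rule. The alternatives were RLE and upper-quartile scaling, DESeq2 1.42.0, limma-voom 3.58.1, filters, a loess trend on GENCODE M21 length and GC, and each Sox7-null library left out.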

Additional observations from a re-analysis of the deposited data

How the results depend on the processing

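Hmox1 kept its direction in all 10 alternatives (log2 fold change 0.94 to 1.16) and passed in 7 of the 8 that have a test. Txnrd1 (-0.89 to -0.52) and Prdx1 (-1.19 to -0.52) kept theirs and passed in 6 of 8, and none of the other 7 members passed in any. Without the filter on low counts, edgeR called 0 genes higher and 0 lower of 17242, and so 0 members, although 4113 genes had an unadjusted p under 0.05. There the adjusted p was 0.122 for Hmox1 and Prdx1 and 0.167 for Txnrd1, and the cause was not tested. DESeq2 called 967 genes higher and 682 lower, with 1 member higher and 1 lower. Removing the length and GC trend left 657 genes lower with the RefSeq-paired transcripts. With all protein-coding transcripts it left 1 member lower, and Gclm turned to 0.17. The median over all genes lay between -0.0096 and 0.028 in every setting. Leaving out either Sox7-null library leaves 1 against 1, which gives values with no test. With 1 wild-type library, no alternative can show how far that library itself departs from other wild-type tubes. No paired analysis was possible because the labels share no replicate numbers. Depth limits Nqo1 and Srxn1 above all.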
